A study of Mus musculus with 9 samples.

Results

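Mouse embryonic stem cells in which MLL4 was knocked down, according to their label, were compared directly with cells lacking UTX through a knockout, with no wild type library in the contrast. The 6 libraries of the 2 perturbed groups, 3 per group, were taken out of the 9 RNA sequencing libraries of the series, and all expressed genes were tested with libraries of the same replicate number treated as a pair. All cells were male embryonic stem cells kept on gelatin in a medium with serum and the cytokine LIF, and the labels name no added compound. The UTX knockout libraries carry the line name A6, and the libraries labelled MLL4 knockdown carry JM8A, the name given to wild type cells, followed by a further number. The labels explain neither A6 nor the number, and they do not give the allele, the knockdown reagent or the number of clones. A difference of line or clone can therefore not be told apart from the perturbation in any result below. The 3 wild type libraries are used to place the levels of genes, in the scaling of the printed levels and in alternative fits, not in the main contrast.

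UTX, encoded by the X-linked gene Kdm6a, removes methyl groups from lysine 27 of histone H3. MLL4, encoded by Kmt2d, adds methyl groups to lysine 4 of histone H3, chiefly at enhancers. UTX is a subunit of the protein complexes built around MLL4 and its relative MLL3, and the acetyltransferase p300 acts at the same class of enhancers. The series title joins all 3 proteins in a network, and the direct contrast asks where the transcriptome without UTX differs from that of cells in which MLL4 was targeted.

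Total counts per library lay between 18570746 and 23874816 over the 9 libraries, and 14233 of the 33924 genes in the table were tested. Levels are given as CPM, read counts scaled to a common library total, and a log2 difference is the labelled MLL4 knockdown minus the UTX knockout, so positive values are higher in the former. Where a difference is given without a unit, it is this log2 difference, and values of 3 libraries are in the order of replicates 1, 2 and 3. A gene was called at a Benjamini-Hochberg adjusted p under 0.05 in edgeR's quasi-likelihood test. No label states that replicates were grown separately, and a p-value here covers the variation among these libraries alone, possibly technical. On the first 2 principal components the groups were separated along the first, with 72.6% of the variance, and the replicate 1 libraries lay apart from the others along the second, with 14.3%. UTX knockout replicate 1 differed from the other libraries of its group by a median of 0.199 and 0.219 in absolute log2 CPM, against 0.145 between those 2, and it lay nearest to the other group. Leaving out the replicate 1 pair gave 7430 called genes against 7393 with all 3 pairs.

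**Figure D1:**
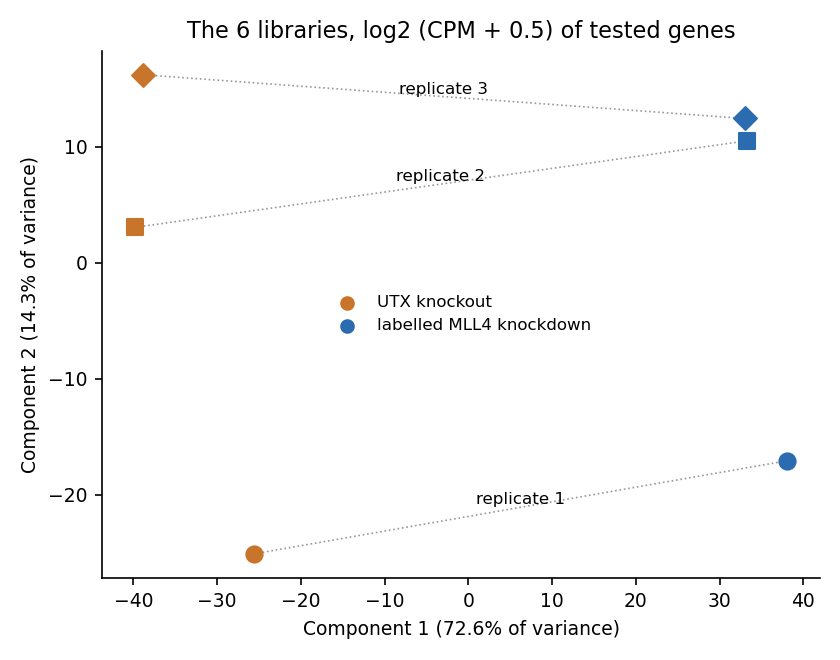
Principal components of log2 (CPM + 0.5) over the tested genes in the 6 libraries. Each point is a library, colours are groups, marker shapes are replicate numbers, and dotted lines join libraries of the same number. Component 1 (72.6% of the variance) separates the groups, and both replicate 1 libraries lie at negative values of component 2 (14.3%).

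Of the 14233 genes tested, 7393 (51.9%) were called: 3618 (25.4%) were higher in the labelled MLL4 knockdown and 3775 (26.5%) were higher in the UTX knockout. Of the called genes, 3708 differed by less than 1.5-fold. Over 2-fold, 1806 genes (12.7%) were called, of which 623 (4.38% of tested genes) were higher in the labelled MLL4 knockdown and 1183 (8.31%) in the UTX knockout. In 7585 genes (53.3%) the 2 groups did not overlap at all, so a lack of overlap given for a gene below was common among tested genes. The calls as a whole were close to evenly divided, and those over 2-fold were more often toward a higher level in the UTX knockout. In a test against a minimum difference of 1.5-fold, 648 genes were called higher in the labelled MLL4 knockdown and 1130 in the UTX knockout. Among the 1183 genes over 2-fold higher in the UTX knockout, the wild type mean lay nearer to the UTX knockout for 890 and nearer to the labelled MLL4 knockdown for 293. Among the 623 over 2-fold higher in the labelled MLL4 knockdown, the wild type mean lay nearer to that group for 292 and nearer to the UTX knockout for 331. With 3 wild type libraries these positions are a description and were not tested. Medians per chromosome with over 100 tested genes lay between -0.0896 and 0.0688.

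**Figure D2:**
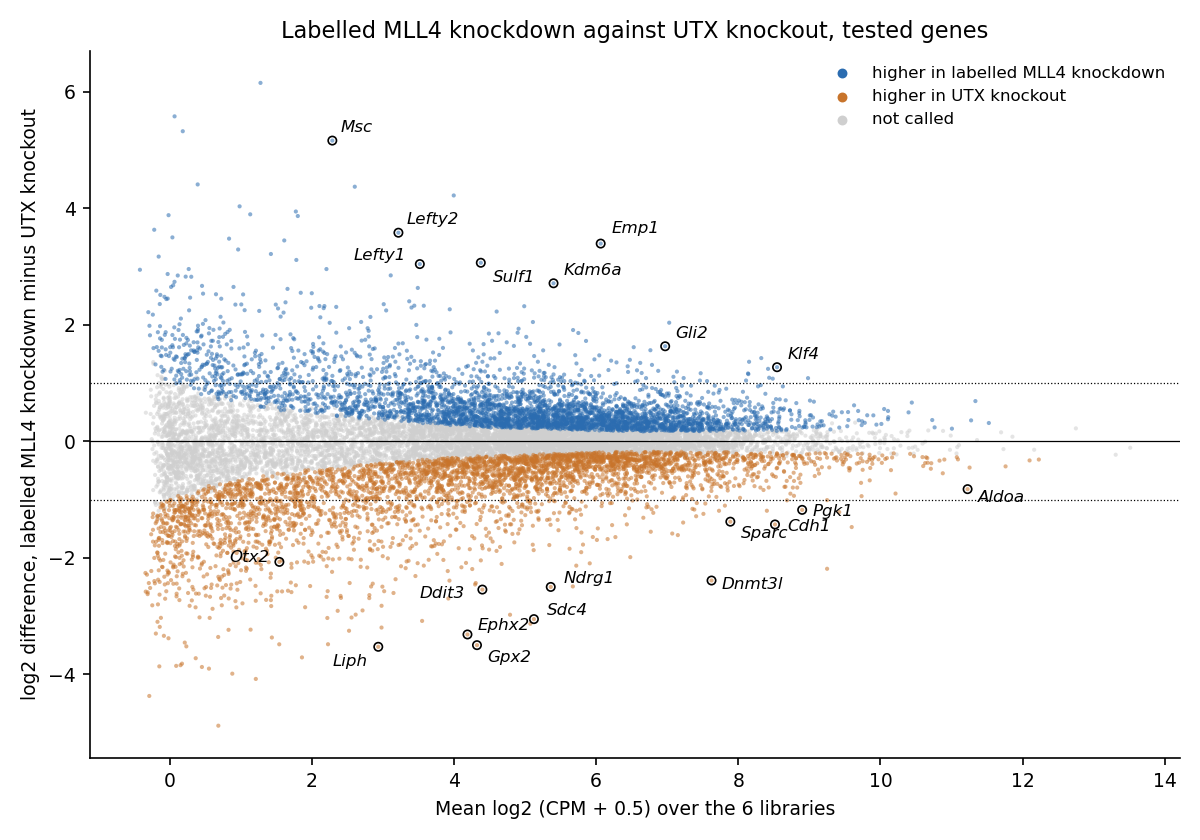
Each point is 1 of the 14233 tested genes, with the mean log2 (CPM + 0.5) over the 6 libraries on the x axis and the fitted log2 difference on the y axis, where blue and orange mark called genes and dotted lines mark 2-fold. Called genes beyond the lower dotted line outnumber those beyond the upper line (1183 against 623), and circled genes are described in the text.

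The pathways and cell types below were followed with 44 gene lists holding 775 distinct genes, of which 656 were tested, 109 had too few counts and 10 were not in the table. List counts are to be read against the shares over all tested genes, 25.4% and 26.5% in the 2 directions and 51.9% together. The core pluripotency (50%), germline (52.4%), Polycomb (55%), primitive endoderm (55.6%) and mitosis lists (57.7%) were among those near 51.9%. The lists were chosen with earlier results of these data known, so their counts are a description. Strand use in counting is not given in the sources used here, so reads from a gene and an antisense partner cannot be told apart.

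**Figure D3:**
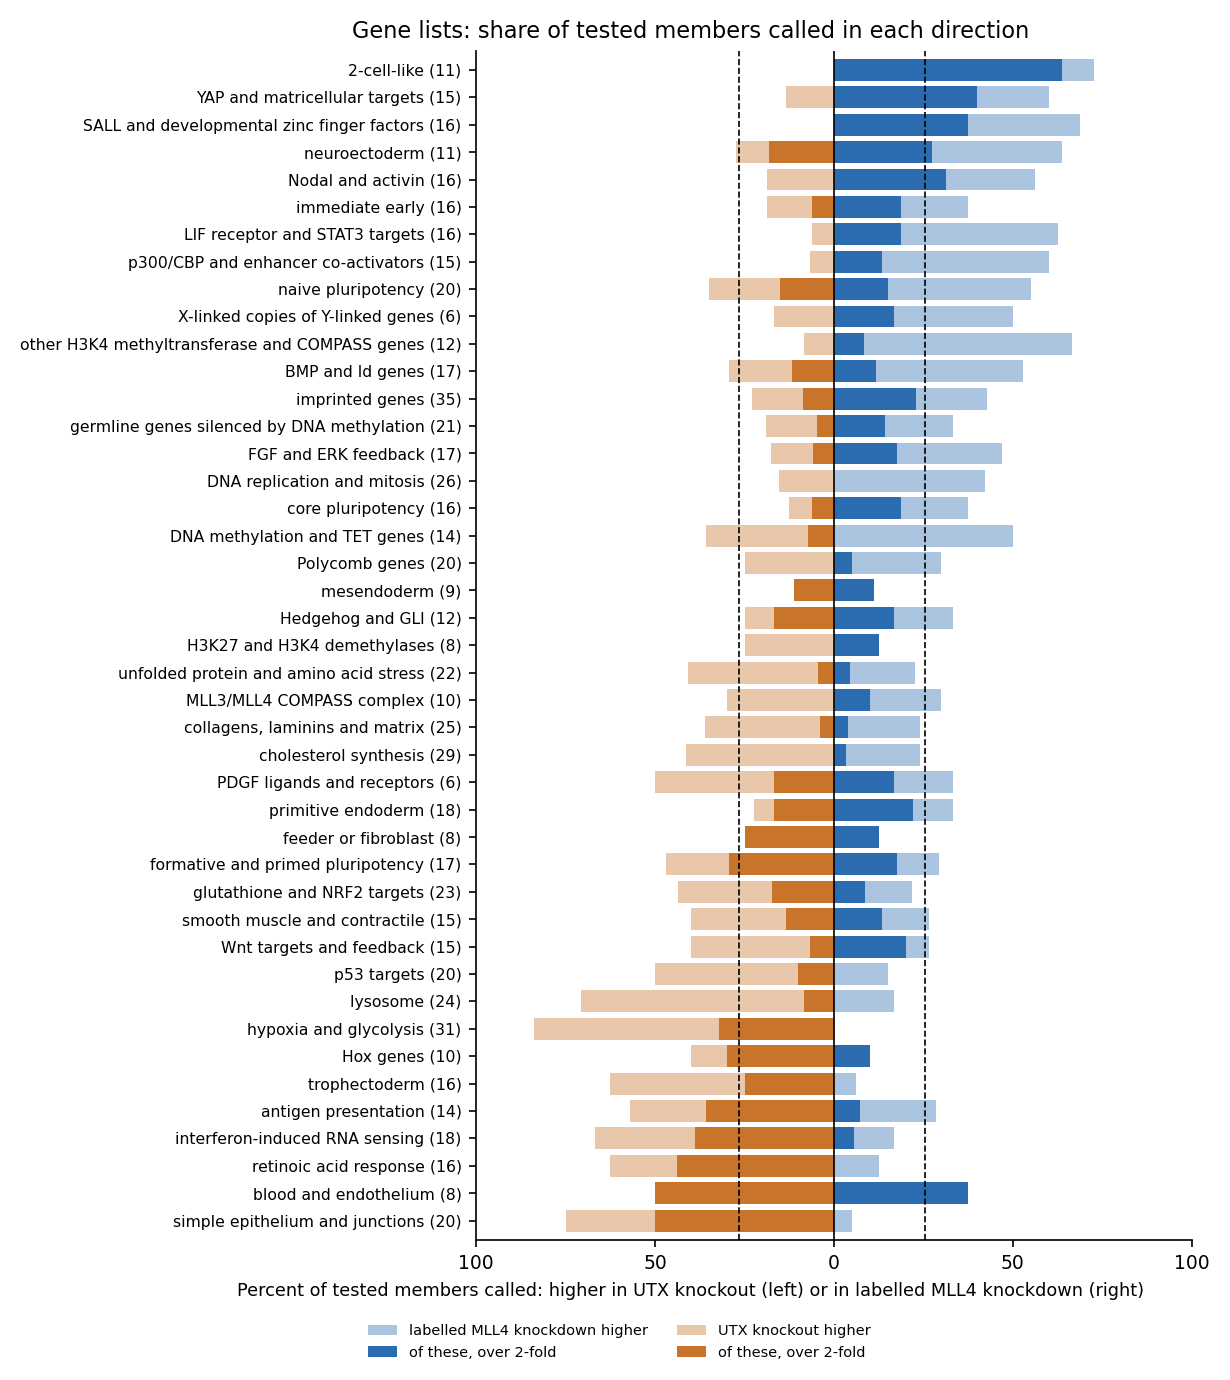
Percent of the tested members of each list (number in brackets, lists with at least 5 tested genes) called higher in the UTX knockout (left, orange) or in the labelled MLL4 knockdown (right, blue), with differences over 2-fold in the darker shade, ordered by median log2 difference. Dashed lines mark the shares over all tested genes (26.5% and 25.4%). The hypoxia and glycolysis list reaches farthest to the left, and the 2-cell-like list farthest to the right.

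Kdm6a separated the groups as the UTX label states. It stood at 12.8, 16.9 and 19.4 CPM in replicates 1 to 3 of the UTX knockout and at 113, 108 and 99.8 CPM in the labelled MLL4 knockdown. All 3 values of the knockout lay far below the other group, at a log2 difference of 2.71 (SE 0.12, adjusted p = 2.1e-07). The labels do not give the deleted part of the gene, so reads outside it can remain. Kmt2d, which the table names Mll2, stood at 109.7, 96.9 and 130.1 CPM in the UTX knockout and 71, 72 and 73.4 CPM in the labelled MLL4 knockdown. The groups did not overlap, and Kmt2d was 1.54-fold lower in the labelled MLL4 knockdown (log2 difference -0.63, SE 0.08, adjusted p = 0.000127). Its 3 wild type libraries stood at 86.2, 43.5 and 119 CPM, a spread that took in the whole range of the labelled MLL4 knockdown and a part of that of the UTX knockout. With all 9 libraries in the fit and no block the call was lost (log2 difference -0.64, adjusted p = 0.0987), and the label of the group rests on the submitters.

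Of the 10 genes of the MLL3 and MLL4 complexes, 3 were higher in the labelled MLL4 knockdown and 3 in the UTX knockout, with a median log2 difference of -0.0044 against -0.00613 over all tested genes. Ash2l, a core subunit shared by all complexes of this class, stood at 398, 481 and 454 CPM in the UTX knockout and 312, 281 and 287 CPM in the labelled MLL4 knockdown (log2 difference -0.60, SE 0.09, adjusted p = 0.000237). Its values did not overlap between groups. Pagr1a, which encodes the PAXIP1-associated subunit, differed the other way by 0.57, and Paxip1 itself by 0.31. The call for Pagr1a was lost without replicate 2 (adjusted p = 0.115). The MLL3 gene Kmt2c stood at 143, 134 and 131 CPM in the UTX knockout and 149.99, 147 and 141 CPM in the other group and was not called (log2 difference 0.10, adjusted p = 0.212). Uty, the Y-linked relative of Kdm6a, lay between 0.724 and 1.13 CPM in all 6 libraries and was not called (log2 difference 0.23, adjusted p = 0.559). Both groups therefore lacked most of the Uty level of the wild type libraries, which was 9.67 to 16.8 CPM. Of the 9 Y-linked genes examined, 2 were tested and neither was called, 1 was not in the table and 6 were below the filter. Low counts were thus not particular to Uty. Eif2s3y had 12 counts in total in the UTX knockout and 5 in the labelled MLL4 knockdown. Kdm5d, Usp9y and Zfy1 had at most 1 count in any of the 6 libraries, and Zfy2 and Sry had 0. The cause of these low levels in both groups was not tested. Of the 6 X-linked copies of Y-linked genes, 3 were higher in the labelled MLL4 knockdown and 1 in the UTX knockout (median 0.294), the latter 0 without replicate 2 or 3. Reads of such X and Y pairs can be exchanged in counting.

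Genes of other enzyme complexes at promoters and enhancers were mostly higher in the labelled MLL4 knockdown. Of 12 other genes of histone H3 lysine 4 methyltransferase complexes, 8 were higher there and 1 in the UTX knockout (median 0.262). Setd1b, a methyltransferase of promoter complexes, stood at 12.4, 6.44 and 12.6 CPM in the UTX knockout and 34.3, 32.2 and 31.1 CPM in the labelled MLL4 knockdown, a 3.19-fold difference (SE 0.17 in log2, adjusted p = 1.94e-05). Hcfc1, a scaffold of those complexes, differed by 0.68, Men1 by 0.50 and Cxxc1 by 0.51. Smyd3 was the exception, with -0.65. Without the replicate 3 pair, 5 of these genes instead of 8 were higher in the labelled MLL4 knockdown, and without the replicate 1 pair, 2 genes instead of 1 were higher in the UTX knockout. Kmt2b, listed as Wbp7, was called with all pairs (log2 difference 0.35, adjusted p = 0.00694) but not without replicate 2 (adjusted p = 0.0764).

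Of 15 co-activator genes around p300, 9 were higher in the labelled MLL4 knockdown and 1 in the UTX knockout, with a median of 0.312. Ep300, encoding p300, stood at 199, 173 and 182 CPM in the UTX knockout and 243, 231 and 220.4 CPM in the labelled MLL4 knockdown, 1.25-fold apart (adjusted p = 0.00255). With all 9 libraries Ep300 was not called, with the block (adjusted p = 0.191) or without it (adjusted p = 0.297). The closely related acetyltransferase gene Crebbp stood at 32.4, 24.6 and 29.8 CPM in the UTX knockout against 62.7, 58.2 and 58.4 CPM, 2.08-fold apart (SE 0.09 in log2, adjusted p = 7.12e-06). Neither gene overlapped between groups, and the difference was larger for Crebbp. Arid1a, a subunit of the SWI/SNF chromatin remodeller, was 2.11-fold higher in the labelled MLL4 knockdown, Kat2b 1.61-fold and Kat6a 1.43-fold. With all 9 libraries in the fit and the replicate block, 3 of the 15 genes passed in this direction, and without the replicate 3 pair none was higher in the UTX knockout.

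Polycomb proteins deposit or read the histone mark that UTX removes. Of 20 Polycomb genes, 6 were higher in the labelled MLL4 knockdown and 5 in the UTX knockout (median 0.0672). The share called was 55%, near the 51.9% of all tested genes. Bmi1 stood at 7.71, 7.87 and 8.87 CPM in the UTX knockout and 16.3, 17.1 and 16.7 CPM in the labelled MLL4 knockdown (log2 difference 1.04, SE 0.12), and Kdm2b, which brings a Polycomb complex to CpG islands, differed by 0.62. Ezh1 and Aebp2, of the complex that methylates lysine 27, were lower in the labelled MLL4 knockdown (log2 differences -0.55 and -0.52). The main methyltransferase gene Ezh2 was not called (0.05). Without replicate 2 or replicate 3 the count higher in the UTX knockout was 3. Of 8 tested demethylase genes acting on the same histone positions, 1 was higher in the labelled MLL4 knockdown, Kdm6a itself, and 2 were higher in the UTX knockout, Kdm1b (-0.42) and Kdm6b (-0.49), which encodes the other main lysine 27 demethylase (list median 0.0343). Kdm6b overlapped between the groups, at 57.5, 67.1 and 107 CPM in the UTX knockout and 42.1, 58.6 and 61.2 CPM in the labelled MLL4 knockdown, and was higher in the UTX knockout in each of the 3 pairs. Without the replicate block it was not called (adjusted p = 0.0865).

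DNA methylation genes were called in both directions. Of 14, 7 were higher in the labelled MLL4 knockdown and 5 in the UTX knockout (median 0.0975), and without replicate 3 the first count was 4. Dnmt3l, the cofactor of the enzymes that place new methylation, stood at 408, 493 and 453 CPM in the UTX knockout and 115, 77.7 and 70.9 CPM in the labelled MLL4 knockdown, 5.24-fold lower in the latter (SE 0.14 in log2, adjusted p = 7.83e-07). The enzyme genes Dnmt3a and Dnmt3b were also lower there (log2 differences -0.50 and -0.61), as was Uhrf1 (-0.45), which guides maintenance methylation. Dnmt1 was not called (-0.12). Tet3, an enzyme that oxidises the methyl mark, was higher in the labelled MLL4 knockdown by 0.64, and Trim28, a co-repressor, by 0.37. Among 21 tested germline genes that DNA methylation is known to silence, 7 were higher in the labelled MLL4 knockdown and 4 in the UTX knockout (median 0.15). Sycp1 and Tdrd1 were 2.1-fold and 2.05-fold higher in the labelled MLL4 knockdown, and Dpep3 6.12-fold lower. Among 35 tested imprinted genes, 15 were higher in the labelled MLL4 knockdown and 8 in the UTX knockout (median 0.219), the latter 5 without replicate 3. Grb10 stood at 313, 369 and 361 CPM in the UTX knockout and 829, 710.4 and 675 CPM in the labelled MLL4 knockdown, and Plagl1 at 5.74, 5.58 and 7.94 CPM in the UTX knockout against 26.3, 18 and 20.7 CPM. In both genes all 3 labelled MLL4 knockdown libraries lay above all UTX knockout libraries, with log2 differences of 1.08 (SE 0.10) and 1.75 (SE 0.15).

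The largest differences involved genes of several kinds. Msc, encoding the transcriptional repressor musculin, stood at 0.638, 0.735 and 0.418 CPM in the UTX knockout and 28.1, 19.5 and 18 CPM in the labelled MLL4 knockdown (log2 difference 5.16, SE 0.19, adjusted p = 4.06e-08). Wild type stood between, at 4.96 CPM ± 1.75 (SD, n = 3). Emp1, a membrane protein of epithelia, stood at 11.9, 27.7 and 24.8 CPM in the UTX knockout against 182, 245 and 225 CPM (3.39, SE 0.13). Here wild type, at 19.9 ± 12.1, lay at the level of the UTX knockout. Sulf1, which trims sulfate groups from heparan sulfate outside the cell, stood at 6.38, 6.79 and 7.62 CPM in the UTX knockout against 53.1, 60.5 and 60.3 CPM (3.07, SE 0.10), with wild type between at 28.1 ± 10.8. Prex2, an activator of the GTPase Rac, was 7.2-fold higher in the labelled MLL4 knockdown. The sodium channel gene Scn3a was 5.29-fold higher, and Irak3, an inhibitor of Toll-like receptor signalling, 6.2-fold. Mthfd2l, a mitochondrial enzyme of folate metabolism, the lipid receptor gene Lpar6 and Sh2d4a were 5.82-fold, 5.02-fold and 5.0-fold higher.

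On the other side, Liph, a phospholipase, stood at 23.7, 24.4 and 21.1 CPM in the UTX knockout and 2.04, 2.17 and 1.77 CPM in the labelled MLL4 knockdown (log2 difference -3.53, SE 0.14, adjusted p = 5.87e-08). Wild type, at 28.7 ± 0.766, lay with the UTX knockout. Inpp5d, encoding the lipid phosphatase SHIP1, stood at 108, 92.3 and 92.8 CPM in the UTX knockout against 11.4, 10.8 and 11.2 CPM (-3.13, SE 0.09), and Aire, a transcriptional regulator best known in the thymus, at 71.4, 74.5 and 80.9 CPM in the UTX knockout against 8.5, 9.28 and 11.1 CPM (-2.98, SE 0.09). The wild type means of 71.8 and 60.3 CPM were nearer to the UTX knockout in both. Sdc4, a cell surface heparan sulfate proteoglycan, was 8.29-fold lower in the labelled MLL4 knockdown. Arhgap30 and Pla2g1b, a secreted phospholipase, were 11.2-fold and 8.47-fold lower, and Padi3, Cd109 and Lrrc31 8.18-fold, 7.48-fold and 7.07-fold. The atypical cadherin gene Fat2 differed from most of these: it stood at 13.4, 12.3 and 11 CPM in the UTX knockout, 1.34, 1.45 and 2.04 CPM in the labelled MLL4 knockdown and 2.36 ± 1.06 CPM in wild type, so that the UTX knockout stood alone. For Lrrc31 the wild type mean, 7.28 CPM, lay about midway on a log scale between the labelled MLL4 knockdown (2.72 CPM) and the UTX knockout (19.4 CPM).

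**Figure D4:**
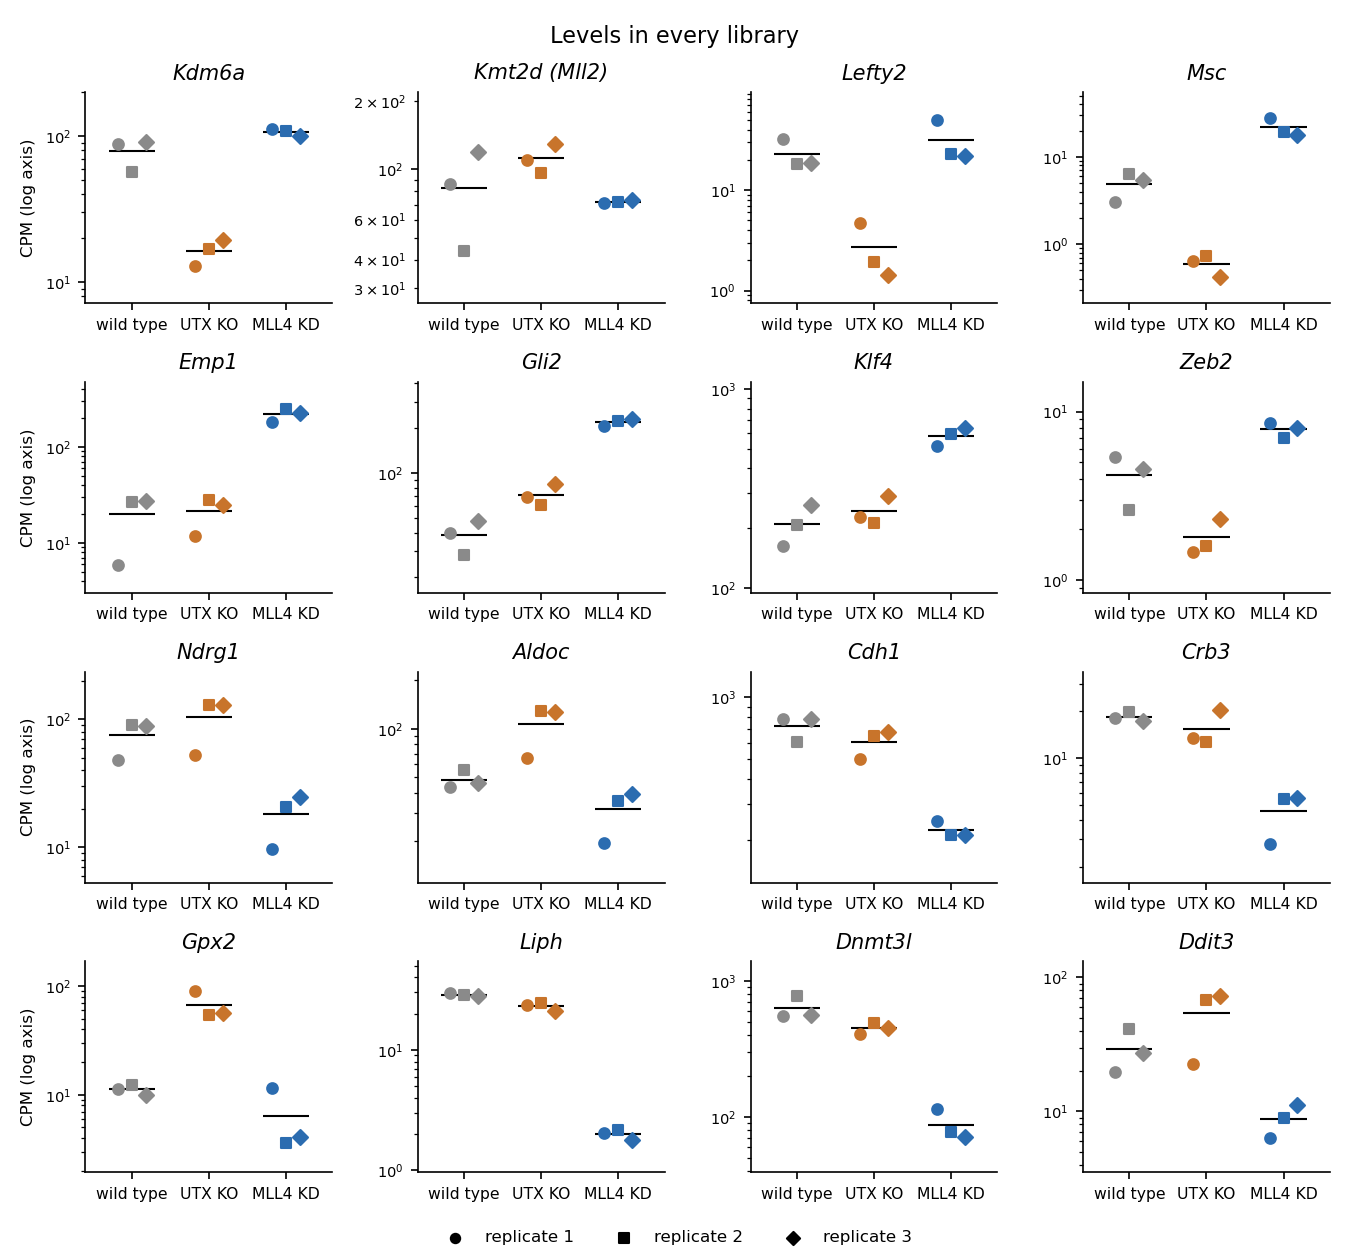
CPM on log axes for 16 genes, with 1 point per library (grey wild type, orange UTX knockout, blue labelled MLL4 knockdown, written MLL4 KD), marker shapes for replicate numbers and a bar for the group mean. For every gene shown the UTX knockout and labelled MLL4 knockdown points do not overlap, while wild type sits with the UTX knockout (Liph), below both (Gli2) or between (Msc).

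Nodal is a secreted signal of the TGF-beta family that embryonic stem cells make themselves, and Lefty proteins are its secreted inhibitors and among its direct targets. Of 16 tested genes of this pathway, 9 were higher in the labelled MLL4 knockdown and 3 in the UTX knockout (median 0.49). The ligand gene Nodal stood at 45.5, 28.7 and 35.5 CPM in the UTX knockout and 75, 71.2 and 66.4 CPM in the labelled MLL4 knockdown (1.97-fold, SE 0.11 in log2, adjusted p = 4.07e-05). The related ligand gene Gdf3 stood at 60.03, 54.8 and 51.6 CPM in the UTX knockout against 129.9, 138 and 138 CPM (2.44-fold, SE 0.08 in log2). Neither ligand overlapped between groups. The inhibitor gene Lefty2 stood at 4.71, 1.95 and 1.44 CPM in the UTX knockout and 49.7, 22.9 and 22 CPM in the labelled MLL4 knockdown (log2 difference 3.58, SE 0.14, adjusted p = 5.87e-08). Lefty1 stood at 9.77, 1.56 and 2.83 CPM in the UTX knockout against 62.1, 23.1 and 21.5 CPM (3.04, SE 0.18). In both Lefty genes replicate 1 was the highest library of its group in both groups, and the lowest labelled MLL4 knockdown library still exceeded the highest UTX knockout library. Wild type stood at 32.3, 18.2 and 18.5 CPM for Lefty2 and 121, 21.9 and 17.2 CPM for Lefty1. For both genes every wild type library lay above every UTX knockout library, and the wild type and labelled MLL4 knockdown ranges overlapped. Fst, which encodes the activin-binding protein follistatin, was 3.64-fold higher in the labelled MLL4 knockdown, and the intracellular inhibitor gene Smad7 2.12-fold. Of the receptors, Acvr2b was higher in the labelled MLL4 knockdown (0.67) and Acvr1b lower (-0.38), the latter not called without the replicate block (adjusted p = 0.118). Foxh1, the DNA-binding partner of the pathway's SMAD proteins, was lower in the labelled MLL4 knockdown (-0.59), as was the co-repressor gene Skil (-0.44). Tdgf1, which encodes the Nodal co-receptor, was not called (0.10).

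Id genes are direct targets of BMP signals. Of 17 tested BMP pathway genes, 9 were higher in the labelled MLL4 knockdown and 5 in the UTX knockout (median 0.257). The target Id3 stood at 5.2, 2.16 and 3.06 CPM in the UTX knockout and 16.9, 10.6 and 10.5 CPM in the labelled MLL4 knockdown (3.72-fold), and Id2 at 14.6, 16.4 and 17.5 CPM in the UTX knockout against 30.2, 24.5 and 27.4 CPM (1.69-fold). Both were free of overlap. The ligand genes Bmp4 and Bmp7 were lower in the labelled MLL4 knockdown (log2 differences -0.74 and -0.76). Bmp4 was not called with all 9 libraries, with the block (adjusted p = 0.137) or without it (adjusted p = 0.343). The BMP target Msx2 was lower there as well (-1.54). Without the replicate 3 pair, 3 genes instead of 5 were higher in the UTX knockout.

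YAP and TEAD proteins switch on genes of the cell's mechanical state. Of 15 tested genes of this kind, 9 were higher in the labelled MLL4 knockdown and 2 in the UTX knockout (median 0.807), and leaving out any one replicate pair gave 9 again, with 1 in the other direction without replicate 1 or 3. Ctgf, a secreted matricellular protein and standard YAP target, stood at 17.2, 13.6 and 13.1 CPM in the UTX knockout and 49.7, 44.8 and 47.3 CPM in the labelled MLL4 knockdown (3.25-fold, SE 0.10 in log2, adjusted p = 6.38e-07). The related target Cyr61 stood at 25.3, 21.9 and 24.6 CPM in the UTX knockout against 57.1, 53.6 and 55.1 CPM (2.31-fold). The kinase gene Lats2, both target and brake of the pathway, stood at 2.65, 2.08 and 1.39 CPM in the UTX knockout against 7.64, 6.56 and 6.64 CPM (3.45-fold). None of these 3 overlapped between groups, which held for 53.3% of all tested genes. Tead1, which encodes a DNA-binding partner of YAP, differed by 0.33 and was not called with all 9 libraries, with the block (adjusted p = 0.15) or without it (adjusted p = 0.225). Edn1, the endothelin precursor gene, was all but absent from the UTX knockout, at 0.0982, 0 and 0.0464 CPM, and stood at 3.93, 1.31 and 1.15 CPM in the labelled MLL4 knockdown.

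LIF keeps mouse embryonic stem cells undifferentiated through its receptor and STAT3. Of 16 genes of this pathway, 10 were higher in the labelled MLL4 knockdown and 1 in the UTX knockout (median 0.394). Il6st, the shared signalling receptor subunit, stood at 109, 113 and 107 CPM in the UTX knockout and 157, 171 and 159.9 CPM in the labelled MLL4 knockdown (0.57, SE 0.07). The target Klf4 stood at 227, 211 and 289 CPM in the UTX knockout against 517, 592 and 637 CPM (2.42-fold, SE 0.09 in log2, adjusted p = 1.46e-06), Gbx2 at 34.3, 19.2 and 23.2 CPM in the UTX knockout against 76.2, 76.7 and 83.6 CPM (3.16-fold), and Myc at 10.6, 5.19 and 8.4 CPM in the UTX knockout against 35.4, 24.1 and 27.2 CPM (3.65-fold). The groups did not overlap in any of these 4 genes. With all 9 libraries in the fit and the replicate block, 5 of the 16 passed in this direction, and without replicate 2 or 3 none was higher in the UTX knockout.

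Sprouty and DUSP proteins are induced by FGF and ERK signals and dampen them. Of 17 such genes, 8 were higher in the labelled MLL4 knockdown and 3 in the UTX knockout (median 0.147). Spry4 stood at 95.9, 52.8 and 48.8 CPM in the UTX knockout and 195, 186 and 178 CPM in the labelled MLL4 knockdown (2.96-fold, SE 0.14 in log2). Spry2 was 2.61-fold higher, Etv1 2.8-fold and the ERK phosphatase gene Dusp6 1.98-fold, all without overlap. The ligand gene Fgf4 and the receptor gene Fgfr2 were lower in the labelled MLL4 knockdown (log2 differences -0.29 and -0.87), and so was the early response gene Ier3 (-1.84). Of 16 tested immediate early genes, 6 were higher in the labelled MLL4 knockdown and 3 in the UTX knockout (median 0.4).

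Genes of Wnt and Hedgehog signalling were called in both directions. Of 15 tested Wnt targets and feedback genes, 4 were higher in the labelled MLL4 knockdown and 6 in the UTX knockout (median -0.254). Notum, a secreted Wnt inhibitor, and Ccnd1, which encodes cyclin D1, were 4.0-fold and 2.54-fold higher in the labelled MLL4 knockdown. The receptor gene Fzd7 stood at 174, 247 and 280.2 CPM in the UTX knockout and 94.3, 133 and 123 CPM in the labelled MLL4 knockdown (-0.99, SE 0.08), and Rnf43, a membrane inhibitor, at 2.06, 2.9 and 3.11 CPM in the UTX knockout against 0.592, 0.905 and 0.709 CPM (-1.86, SE 0.26). The common Wnt target Axin2 was not called (-0.25). Of 12 tested Hedgehog pathway genes, 4 were higher in the labelled MLL4 knockdown and 3 in the UTX knockout (median 0.0542). Smo, the pathway's signal-transducing receptor, stood at 26.2, 23.8 and 25.9 CPM in the UTX knockout and 63.3, 64.9 and 60.05 CPM in the labelled MLL4 knockdown (2.48-fold), and the transcription factor gene Gli2 at 68.9, 61.1 and 84.7 CPM in the UTX knockout against 207, 223 and 230.4 CPM (3.1-fold, SE 0.09 in log2, adjusted p = 4.09e-07). The co-receptor genes Cdon and Boc were lower in the labelled MLL4 knockdown (log2 differences -1.35 and -1.24). The pathway's own readout genes Gli1 and Ptch1 were not called (0.13 and -0.15). Without replicate 1 both passed, at 0.28 (adjusted p = 0.0134) and -0.20 (adjusted p = 0.0287). Among PDGF genes, 6 of 7 were tested, 2 were higher in the labelled MLL4 knockdown and 3 in the UTX knockout (median -0.138). The 2 receptor genes differed in opposite directions, Pdgfra by 1.46 and Pdgfrb by -1.46.

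Both groups carried the markers of embryonic stem cells. The summed level of the 16 core pluripotency genes was 6676, 7069 and 6977 CPM in the UTX knockout and 6690, 7146 and 7227 CPM in the labelled MLL4 knockdown. Of these genes 6 were higher in the labelled MLL4 knockdown and 2 in the UTX knockout (median 0.103), the latter 1 without replicate 2. Pou5f1, which encodes OCT4, was not called (log2 difference -0.03, 95% interval -0.21 to 0.14), nor was Sox2 (0.08, 95% interval -0.09 to 0.25). Nanog was higher in the labelled MLL4 knockdown, at 959, 789 and 769 CPM against 666, 559 and 554 CPM (1.41-fold, adjusted p = 0.000238). Foxd3, which encodes a forkhead factor of the pluripotent state, stood at 18.3, 26.7 and 32.7 CPM against 5.3, 3.76 and 6.36 CPM (5.02-fold). Dppa5a, which encodes an RNA-binding protein of these cells, went the other way, at 559, 452 and 396 CPM against 1343, 1484 and 1071 CPM in the UTX knockout (-1.47, SE 0.09).

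Naive pluripotency is the state before implantation, and formative and primed pluripotency the states after it. Of 20 naive genes, 11 were higher in the labelled MLL4 knockdown and 7 in the UTX knockout (median 0.31). Beside Klf4 and Gbx2, the 11 included the transcription factor genes Nr0b1 (1.04), Nr5a2 (0.71), Prdm14 (0.59), Tfcp2l1 (0.50) and Esrrb (0.35). The 7 included the adhesion gene Pecam1, at 91.5, 112 and 116 CPM in the UTX knockout and 33.4, 25.6 and 26.6 CPM in the labelled MLL4 knockdown (-1.90, SE 0.12). They also included the oocyte and early embryo genes Dppa3 (-1.71) and Ooep (-1.43). Of 17 tested formative and primed genes, 5 were higher in the labelled MLL4 knockdown and 8 in the UTX knockout (median -0.176). Otx2, a transcription factor of the transition out of the naive state, stood at 6.82, 3.72 and 4.13 CPM in the UTX knockout and 1.72, 0.996 and 0.797 CPM in the labelled MLL4 knockdown (-2.07, SE 0.22, adjusted p = 2.91e-05). Sox4 differed the other way, by 2.35. Both lists thus held called genes in each direction.

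Most genes in a chosen list of zinc finger transcription factors were higher in the labelled MLL4 knockdown. Of 16 tested SALL, ZIC, PRDM, ZEB and related genes, 11 were higher there and 0 were higher in the UTX knockout (median 0.801), and leaving out any one replicate pair gave 11 again. The 0 holds under DESeq2 as well, and 0 of the 16 were lower in the labelled MLL4 knockdown at an unadjusted p under 0.05 in edgeR. These counts use the same libraries, and the list was chosen with earlier results of these data known. They describe the 16 genes and do not test zinc finger families. Sall3 stood at 7.12, 6.36 and 8.27 CPM in the UTX knockout and 26.1, 23.6 and 23.8 CPM in the labelled MLL4 knockdown (3.39-fold, SE 0.12 in log2), and Zfp521 at 11.4, 11.2 and 12.2 CPM in the UTX knockout against 31.8, 48.1 and 46.5 CPM (3.6-fold). Zic2 and Zic5 were 2.23-fold and 2.28-fold higher. Zeb2, a repressor of epithelial genes, stood at 1.47, 1.6 and 2.32 CPM in the UTX knockout against 8.61, 7.01 and 7.97 CPM (4.37-fold, SE 0.20 in log2, adjusted p = 1.32e-05), and its relative Zeb1 was 1.67-fold higher. All 6 of these genes were free of overlap. Sall4, a core pluripotency factor, was not called (0.10).

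Epithelial genes differed the opposite way. Of 20 genes of simple epithelia and their junctions, 15 were higher in the UTX knockout and 1 in the labelled MLL4 knockdown, the junction gene Tjp1, with a median of -0.929 against -0.00613 over all tested genes. Cdh1, the E-cadherin gene, stood at 497, 643 and 674 CPM in the UTX knockout and 247, 213 and 211 CPM in the labelled MLL4 knockdown (2.69-fold lower in the latter, SE 0.11 in log2, adjusted p = 4.52e-06). Wild type stood at 722 CPM ± 103 (SD, n = 3), with the UTX knockout. The claudin genes of tight junctions showed the same separation. Cldn4 stood at 89.98, 94.1 and 99.5 CPM in the UTX knockout against 31.8, 32.2 and 31.8 CPM (-1.57, SE 0.08), and Cldn6 and Cldn7 differed by -1.57 and -1.38. The apical polarity gene Crb3 stood at 13.4, 12.7 and 20.4 CPM in the UTX knockout against 2.8, 5.43 and 5.58 CPM (-1.75, SE 0.18). Esrp1, a splicing regulator of epithelial cells, was 2.8-fold lower in the labelled MLL4 knockdown, and the desmosome gene Pkp2 2.5-fold. Grhl2, an activator of epithelial genes, stood at 35, 22.6 and 22.8 CPM in the UTX knockout and 13.6, 10.5 and 10.1 CPM in the labelled MLL4 knockdown (-1.21, SE 0.11). Epcam showed a small difference (-0.32), and the keratin gene Krt8 was not called (0.03, 95% interval -0.34 to 0.41). Vim, the mesenchymal filament gene, was 2.28-fold higher in the labelled MLL4 knockdown, at 159.5, 118 and 119.7 CPM against 59.6, 51.4 and 62 CPM. Leaving out any one replicate pair gave 14 or 15 epithelial genes higher in the UTX knockout. Tjp1 (0.22) was not called without replicate 2 (adjusted p = 0.103) or 3 (adjusted p = 0.0919), and without replicate 1 the count in its direction was 2.

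ZEB repressors bind the sequence CACCTG in the promoters of epithelial genes, so the promoters are shown as context for genes that moved together. RefSeq promoters (build GRCm38.p6, the 250 bases before the start) were searched for CACCTG on both strands, where CAGGTG is its other strand. The letters occurred in 10 of the 15 tested epithelial genes with a window (66.7%) and in 9 of the 11 of these that were higher in the UTX knockout (81.8%), against 19.4% of all genes with a window and 19.4% of tested genes. A gene with several windows counts where any of them holds a match. A match is a description of letters and not a bound site. The windows of Crb3 at chr17:57061951-57062200, Cldn7 at chr11:69965171-69965420 (both plus strand) and Cldn4 at chr5:134946935-134947184 (minus strand) are printed 5′ to 3′ with matches in capitals.
Crb3: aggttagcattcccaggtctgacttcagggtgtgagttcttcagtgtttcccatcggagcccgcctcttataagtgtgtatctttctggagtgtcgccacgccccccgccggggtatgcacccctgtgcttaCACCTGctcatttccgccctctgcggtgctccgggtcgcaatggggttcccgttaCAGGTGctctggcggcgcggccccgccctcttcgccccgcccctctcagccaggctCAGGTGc
Cldn7: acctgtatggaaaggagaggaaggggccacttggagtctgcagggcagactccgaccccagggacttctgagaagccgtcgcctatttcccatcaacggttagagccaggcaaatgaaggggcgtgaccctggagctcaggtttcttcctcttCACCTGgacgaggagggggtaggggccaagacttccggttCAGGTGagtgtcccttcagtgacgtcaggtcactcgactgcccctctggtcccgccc
Cldn4: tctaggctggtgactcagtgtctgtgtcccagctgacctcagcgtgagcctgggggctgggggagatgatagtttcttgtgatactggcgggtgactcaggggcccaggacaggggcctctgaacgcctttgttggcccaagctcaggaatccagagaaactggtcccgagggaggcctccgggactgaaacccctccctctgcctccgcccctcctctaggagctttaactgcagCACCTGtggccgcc
The window of Crb3 holds 3 matches, that of Cldn7 2 and that of Cldn4 1. Another window of Cldn7 holds none.

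**Figure D5:**
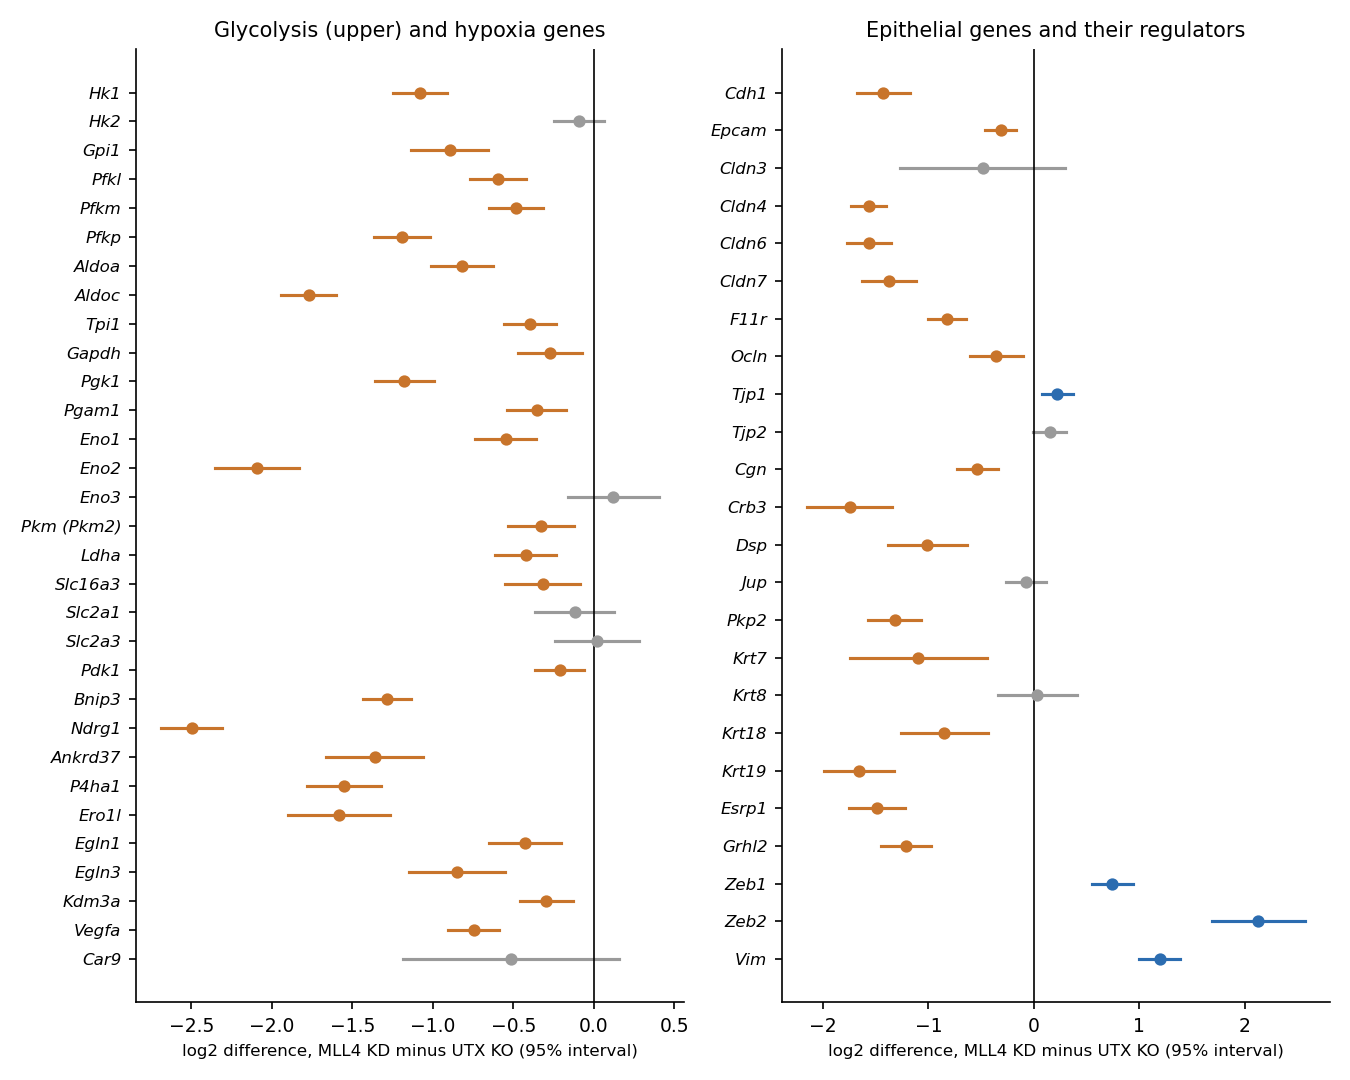
Fitted log2 differences (labelled MLL4 knockdown, written MLL4 KD, minus UTX knockout) with 95% intervals for the 31 glycolysis and hypoxia genes (left) and for epithelial genes with Grhl2, Zeb1, Zeb2 and Vim (right), where orange is higher in the UTX knockout, blue higher in the labelled MLL4 knockdown and grey not called. On the left 26 genes are orange and none is blue, and on the right Zeb1, Zeb2, Vim and Tjp1 are the blue points.

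Glycolysis breaks glucose down to lactate, and its genes together with many others are induced by the factor HIF1 when oxygen is low. Of 31 genes of glycolysis and hypoxia, 26 were higher in the UTX knockout and 0 in the labelled MLL4 knockdown (median -0.548), and 10 of the 26 were over 2-fold. No member was higher in the labelled MLL4 knockdown under DESeq2 or at an unadjusted p under 0.05 in edgeR either. Of the enzymes, Aldoa stood at 2556, 3374 and 3735 CPM in the UTX knockout and 1557, 1919 and 1956 CPM in the labelled MLL4 knockdown (-0.82, SE 0.09, adjusted p = 3.02e-05), and its brain form Aldoc at 66.1, 129 and 128 CPM in the UTX knockout against 19.4, 35.7 and 39.5 CPM (-1.77, SE 0.08). Pgk1 stood at 588, 965 and 648 CPM in the UTX knockout against 298, 384 and 279 CPM (-1.18, SE 0.08). In all 3 enzymes replicate 1 was the lowest or near the lowest library of its group, and the groups did not overlap. Hk1, the first enzyme of the pathway, differed by -1.08, Pfkp by -1.19, Gpi1 by -0.90 and Eno2 by -2.09.

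Of the HIF targets outside glycolysis, Ndrg1 stood at 52.9, 129.9 and 129 CPM in the UTX knockout and 9.63, 20.7 and 24.6 CPM in the labelled MLL4 knockdown (5.65-fold lower in the latter, SE 0.09 in log2, adjusted p = 2.7e-08). Bnip3, which acts in the removal of mitochondria, stood at 179.7, 327 and 314 CPM in the UTX knockout against 76.9, 129 and 128 CPM (-1.29, SE 0.07), and P4ha1, a collagen prolyl hydroxylase, at 103, 250.3 and 246 CPM in the UTX knockout against 45.8, 73.8 and 75.9 CPM (-1.55, SE 0.10). The replicate 1 libraries were low in both groups for these 3 genes, so that UTX knockout replicate 1 lay nearest to the labelled MLL4 knockdown, and no group overlapped the other. Adm, encoding the peptide adrenomedullin, was 7.86-fold lower in the labelled MLL4 knockdown. The secreted growth factor gene Vegfa overlapped between groups, at 76.5, 122 and 133 CPM in the UTX knockout against 47.4, 67.1 and 82.4 CPM, and was called in the paired test (-0.75, adjusted p = 1.57e-05). The glucose transporter genes Slc2a1 and Slc2a3 were not called (-0.12 and 0.02). Without replicate 1 both were, at -0.28 (adjusted p = 0.0116) and -0.16 (adjusted p = 0.0378). Without replicate 1, 2 or 3 the count higher in the UTX knockout was 27, 22 and 22, and with all 9 libraries and no block it was 17.

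HIF1 binds the core letters ACGTG or GCGTG. In the same RefSeq windows these letters, on either strand and with overlapping matches counted, occurred in 26 of the 29 tested members with a window (89.7%) and in 22 of the 25 called ones (88%), against 41.5% of all genes with a window and 61.3% of tested genes. The members that were not called thus held the letters as well. Counted per window, the letters occurred in 75% of the windows of tested members and 55.3% of those of tested genes. The list was drawn up largely from genes that HIF1 is known to induce, so its high share is no test of HIF1. Here too a match is not a bound site. CACGT and CACGC are the same letters on the other strand, and CACGTG holds a match on each. The windows of Bnip3 at chr7:138909507-138909756 (minus strand), P4ha1 at chr10:59323046-59323295 and Pgk1 at chrX:106186850-106187099 (plus strand) are shown because these genes moved together in every pair, with matches in capitals.
Bnip3: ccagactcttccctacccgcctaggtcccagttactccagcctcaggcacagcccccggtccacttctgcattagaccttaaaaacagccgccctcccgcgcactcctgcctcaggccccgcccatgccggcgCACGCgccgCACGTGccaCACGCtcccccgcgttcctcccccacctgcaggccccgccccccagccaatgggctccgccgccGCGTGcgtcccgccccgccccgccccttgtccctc
P4ha1: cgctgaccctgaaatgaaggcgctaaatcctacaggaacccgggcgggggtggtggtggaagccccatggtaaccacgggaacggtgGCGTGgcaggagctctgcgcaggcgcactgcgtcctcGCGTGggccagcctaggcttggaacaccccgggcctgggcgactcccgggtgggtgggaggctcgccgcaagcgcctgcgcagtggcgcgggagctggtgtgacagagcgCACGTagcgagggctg
Pgk1: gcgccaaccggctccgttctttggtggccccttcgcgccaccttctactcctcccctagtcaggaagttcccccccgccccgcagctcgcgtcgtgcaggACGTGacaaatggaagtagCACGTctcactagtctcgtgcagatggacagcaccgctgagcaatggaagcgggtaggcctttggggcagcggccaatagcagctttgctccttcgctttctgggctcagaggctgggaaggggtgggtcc
The windows hold 5, 3 and 2 matches in that order.

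Lysosomal genes followed the same direction. Of 24 genes, 17 were higher in the UTX knockout and 4 in the labelled MLL4 knockdown (median -0.415), and leaving out a replicate pair gave 15 to 19 in the first direction. The cathepsin B gene Ctsb stood at 189.5, 326 and 297 CPM in the UTX knockout and 129, 155 and 156 CPM in the labelled MLL4 knockdown (-0.85, SE 0.09). The groups did not overlap. Psap, Ctsd, Npc1 and Cd63 differed by -0.68, -0.61, -0.70 and -0.81. Tfeb, which encodes an activator of lysosomal genes, was higher in the labelled MLL4 knockdown by 0.70.

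Among genes of glutathione metabolism and the antioxidant factor NRF2, 10 of 23 tested were higher in the UTX knockout and 5 in the labelled MLL4 knockdown (median -0.181), the latter 3 without replicate 3. Gpx2, a glutathione peroxidase, stood at 90.3, 53.9 and 57.1 CPM in the UTX knockout and 11.6, 3.62 and 4.07 CPM in the labelled MLL4 knockdown (-3.50, SE 0.16, adjusted p = 2.1e-07). Wild type stood at 11.2 ± 1.26 CPM, near replicate 1 of the labelled MLL4 knockdown and above its replicates 2 and 3. The glutathione transferase genes Gstm1 and Gstm2 were 2.17-fold and 3.39-fold higher in the UTX knockout, and Gstm3 9.52-fold, though reads of these related genes can be exchanged. Ggt1, which splits glutathione outside the cell, and Ephx2, an epoxide hydrolase, were 8.13-fold and 9.95-fold higher. Gpx4, which protects membranes from lipid oxidation, differed by -0.84. Gclc, of glutathione synthesis, was higher in the labelled MLL4 knockdown (0.54).

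Stress genes were mixed. Of 22 tested genes of the unfolded protein and amino acid responses, 9 were higher in the UTX knockout and 5 in the labelled MLL4 knockdown (median -0.000634). Ddit3, encoding the factor CHOP, stood at 22.7, 68.3 and 72.9 CPM in the UTX knockout and 6.35, 9.01 and 11.1 CPM in the labelled MLL4 knockdown (-2.54, SE 0.17, adjusted p = 1.22e-06). UTX knockout replicate 1 was the low library of its group and still lay above the other group. The endoplasmic reticulum chaperone genes Hspa5 and Hsp90b1 differed by -0.67 and -0.49, while Chac1 and Trib3, 2 targets of the same stress response, were higher in the labelled MLL4 knockdown by 1.44 and 0.61. Of 20 tested p53 targets, 10 were higher in the UTX knockout and 3 in the labelled MLL4 knockdown (median -0.342). The cell cycle inhibitor gene Cdkn1a stood at 48.3, 56.4 and 56 CPM in the UTX knockout and 22.1, 26 and 21.8 CPM in the labelled MLL4 knockdown (-1.20, SE 0.09), and the death receptor gene Tnfrsf10b differed by -0.81. Perp and Aen differed the other way, by 0.87 and 0.58. Of 26 genes of DNA replication and mitosis, 11 were higher in the labelled MLL4 knockdown and 4 in the UTX knockout (median 0.14). The mitotic genes Plk1, Cdc20, Cenpe and Aurka were higher in the labelled MLL4 knockdown by 0.68, 0.58, 0.59 and 0.57. The counts in these 2 directions were 6 and 0 without replicate 3 and 7 and 0 without replicate 2. Of 29 tested cholesterol synthesis genes, 12 were higher in the UTX knockout and 7 in the labelled MLL4 knockdown (median -0.0914).

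Interferon-induced genes act in sensing foreign RNA. Of 18 tested, 12 were higher in the UTX knockout and 3 in the labelled MLL4 knockdown (median -0.844), the latter 1 without replicate 3. Oas3, a synthetase that activates RNase L, stood at 11.5, 9.81 and 8.82 CPM in the UTX knockout and 1.08, 0.679 and 0.576 CPM in the labelled MLL4 knockdown (-3.71, SE 0.20, adjusted p = 4.78e-07), and Oas2 at 2.65, 2.25 and 2.14 CPM in the UTX knockout against 0.43, 0.453 and 0.443 CPM (-2.38, SE 0.29). The groups did not overlap, at low levels in both. Members of the Oas1 family have near-identical copies, and their separate values are uncertain. The signalling gene Stat2 and the effector gene Bst2 differed by -0.90 and -0.79. Of 14 tested antigen presentation genes, 8 were higher in the UTX knockout and 4 in the labelled MLL4 knockdown (median -0.807). The peptide transporter gene Tap1 stood at 7.31, 8.21 and 9.1 CPM in the UTX knockout against 2.1, 3.21 and 2.97 CPM (-1.57, SE 0.17) and the immunoproteasome gene Psmb9 at 5.69, 3.72 and 3.99 CPM in the UTX knockout against 1.4, 1.76 and 1.82 CPM (-1.39, SE 0.24). The class I heavy chain gene H2-K1 was higher in the labelled MLL4 knockdown (0.64), though genes of this family also share reads.

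Retinoic acid directs differentiation through nuclear receptors. Of 16 tested genes of its metabolism and response, 10 were higher in the UTX knockout and 2 in the labelled MLL4 knockdown (median -0.879), the latter 1 without replicate 2. Crabp2, which carries retinoic acid to its receptors, stood at 5.84, 7.26 and 5.76 CPM in the UTX knockout and 0.968, 0.317 and 0.576 CPM in the labelled MLL4 knockdown (-3.37, SE 0.30, adjusted p = 1.01e-05). Crabp1 stood at 17.7, 18 and 20.8 CPM in the UTX knockout against 9.04, 8.33 and 9.88 CPM (-1.05, SE 0.11). The target Stra8 and the synthesis enzyme gene Aldh1a3 differed by -1.89 and -2.51. The receptor partner gene Rxra was higher in the labelled MLL4 knockdown (0.79). Most of these genes were low: among genes with a mean of at least 5 CPM, 3 were higher in the UTX knockout. Hox genes, another class of retinoic acid targets, were largely silent, with 24 of 34 below the filter. Of the 10 tested, 4 were higher in the UTX knockout and 1 in the labelled MLL4 knockdown (median -0.63).

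Lineage markers show which other cell types the cultures could hold. In bulk RNA, fewer cells of a type and less RNA per cell cannot be told apart. Of 16 tested trophectoderm genes, 10 were higher in the UTX knockout and 1 in the labelled MLL4 knockdown (median -0.801), and their summed level was 214.8 to 307.3 CPM in the UTX knockout and 161.4 to 190.4 CPM in the labelled MLL4 knockdown. Esx1, a placental homeobox gene, stood at 5.45, 8.26 and 10.03 CPM in the UTX knockout against 1.29, 1.31 and 1.59 CPM (-2.48, SE 0.20), and the trophoblast factor gene Ascl2 at 3.53, 6.4 and 8.4 CPM in the UTX knockout against 1.29, 1.4 and 1.55 CPM (-2.08, SE 0.23). Cdx2 and Elf5, which define the trophectoderm, were below the filter, with at most 12 and 1 counts in a library. Keratins of this list also belong to the epithelial list. Of 18 tested primitive endoderm genes, 6 were higher in the labelled MLL4 knockdown and 4 in the UTX knockout (median -0.162), and the summed level was 2197 to 3360 CPM in the UTX knockout and 1835 to 2238 CPM in the labelled MLL4 knockdown. Sparc, a matrix protein gene, stood at 257, 470.1 and 459 CPM in the UTX knockout against 100.3, 180.3 and 174 CPM (-1.38, SE 0.07). Dab2 and Cubn, of endocytosis in endoderm, were 4.95-fold and 7.76-fold higher in the labelled MLL4 knockdown, and the labelled MLL4 knockdown libraries stood at 4.2, 17.7 and 14.5 CPM for Cubn, lowest in replicate 1.

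Of 11 tested neuroectoderm genes, 7 were higher in the labelled MLL4 knockdown and 3 in the UTX knockout (median 0.704). Their summed level was 182.9 to 217.5 CPM in the UTX knockout and 283.4 to 298.6 CPM in the labelled MLL4 knockdown. The transcription factor gene Olig2 stood at 37.4, 24.4 and 34.5 CPM in the UTX knockout against 88.9, 107 and 119.96 CPM (3.3-fold, SE 0.14 in log2), and Sox11 and Pax6 were 2.59-fold and 1.81-fold higher. Nes, the nestin gene of neural progenitors, differed the other way, at 19.8, 23.9 and 25.1 CPM in the UTX knockout against 8.28, 5.48 and 6.16 CPM (-1.80, SE 0.16). Of 9 tested mesendoderm genes, 1 was called in each direction (median 0.0552), with sums of 32.3 to 40.4 and 31.9 to 42.5 CPM in the UTX knockout and the labelled MLL4 knockdown. Of 8 tested feeder or fibroblast genes, 1 was higher in the labelled MLL4 knockdown and 2 in the UTX knockout (median -0.171), and without replicate 1 the first count was 2. Their sums, 75.8 to 94.9 and 137.2 to 180.1 CPM, were set chiefly by Vim, and the fibroblast genes Fap and Lum had 0 counts in all 6 libraries. Of 8 tested blood and endothelium genes, 3 were higher in the labelled MLL4 knockdown and 4 in the UTX knockout (median -0.915). Their sums, 175.7 to 256.3 and 100.3 to 109 CPM, included Pecam1 and Cd68 as the largest members in the UTX knockout, and Hba-x, Hbb-bh1 and Lyz2 had 0 counts. The part of other cell types in the results above was not tested.

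Of 15 tested smooth muscle and contractile genes, 4 were higher in the labelled MLL4 knockdown and 6 in the UTX knockout (median -0.223). Acta2, smooth muscle actin, stood at 0.245, 1.08 and 0.789 CPM in the UTX knockout and 6.62, 8.06 and 8.37 CPM in the labelled MLL4 knockdown (3.45, SE 0.28). Tagln2 and Des differed the other way, by -1.16 and -1.42. Of 25 tested collagen, laminin and other matrix genes, 6 were higher in the labelled MLL4 knockdown and 9 in the UTX knockout (median -0.0649). The basement membrane genes Nid1, Nid2 and Lama1 were lower in the labelled MLL4 knockdown (log2 differences -0.68, -0.79 and -0.70), while Thbs1, encoding thrombospondin 1, was 4.86-fold higher there.

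A small fraction of embryonic stem cells resembles the embryo at the 2-cell stage and expresses Zscan4 genes. Of 11 tested genes of this state, 8 were higher in the labelled MLL4 knockdown and 0 in the UTX knockout (median 1.23), with 0 in the latter direction also in DESeq2 and at an unadjusted p under 0.05 in edgeR. Zscan4d stood at 1.67, 0.0865 and 0.464 CPM in the UTX knockout and 7.26, 1.72 and 1.73 CPM in the labelled MLL4 knockdown (2.35, SE 0.33, adjusted p = 0.000204), and Zscan4c at 0.933, 0.476 and 0.464 CPM in the UTX knockout against 4.14, 0.724 and 1.77 CPM (1.70, SE 0.34). Replicate 1 was the highest library in both groups, so the pairs separate within each number, and Zscan4c overlapped across numbers. The summed level of the 11 genes was 11.1, 3.37 and 3.67 CPM in the UTX knockout and 28.1, 8.33 and 10.5 CPM in the labelled MLL4 knockdown. The count fell to 5 without replicate 1, to 3 without the replicate block, to 4 in DESeq2 and to 0 among genes with a mean of at least 5 CPM. The copies of Zscan4 share reads, so these genes are not separate observations.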

How the data were processed

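The values are whole-number counts of reads per gene, as deposited by the authors in a single table of 9 libraries. The builds hg19 and mm9 and the programs HTSeq 0.6.1 and STAR 2.4 appear, without a stated role, per the submitters' processing notes. Which annotation, strand mode or filter was applied is not given in the sources used here. Libraries were TruSeq preparations, and replicates 1 and 3 carry another lane code than replicate 2, so each pair shares its lane code. Counts of the 6 libraries were tested with edgeR 4.0.16 (R 4.3.3, quasi-likelihood, TMM, filterByExpr) with group and replicate number as terms, and p-values were adjusted over all 14233 genes. CPM were computed from the counts with TMM factors over 9 libraries. Deviations from the group means correlated at 0.483, 0.175 and 0.388 between libraries of the same number, and at -0.452 to 0.244 between others. The 0.244, between UTX knockout replicate 3 and labelled MLL4 knockdown replicate 2, exceeded the 0.175 of the number 2 pair. These values therefore do not establish that pair, and the block rests on the replicate numbers as labelled. An exact permutation test of 3 against 3 could not go below p = 0.1 and was not used. A log2 difference is a fitted edgeR value, which at very low counts depends on its prior count.

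Named genes are the targeted genes and their relatives, the 15 largest non-overlapping differences in each direction at a mean log2 CPM of at least 2, the most abundant called genes, and called members of the lists. Not every gene that meets this rule is described, and the most abundant are left out. Ezh2, Dnmt1, Axin2, Gli1, Ptch1, Krt8, Slc2a1 and Slc2a3 were named after their values were seen. The comparison and the lists were chosen with earlier results of these data known. Mll2 was read as Kmt2d because Wbp7 (Kmt2b) has its own row, and 20 list genes were matched through another symbol. Alternatives were no replicate block, all 9 libraries, RLE size factors, DESeq2 1.42.0, 2 other filters, leaving out each replicate pair, removal of each library's trend on transcript length, a chromosome filter and a minimum fold of 1.5. The fit was tested on simulated data with few changed genes, balanced in direction, and a built-in effect of replicate number. These data differ in all 3 respects or may do so, so the simulation checks the working of the fit alone. Promoter windows came from RefSeq (GRCm38.p6).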

Additional observations from a re-analysis of the deposited data

How the results depend on the processing

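The replicate numbers were used as a pairing, and without the replicate block 5871 genes instead of 7393 were called, 2773 higher in the labelled MLL4 knockdown and 3098 in the UTX knockout. In the fit of 6 libraries the named genes whose call was lost without the block were Acvr1b and Kdm6b. Among list counts it moved by over 1.5 times those of the 2-cell-like genes (8 to 3) and of Polycomb genes (5 to 3), mitosis genes (4 to 1), YAP targets and core pluripotency genes (2 to 1 each) higher in the UTX knockout. In the other direction it moved cholesterol (7 to 4), matrix (6 to 3), formative (5 to 3), lysosome (4 to 2) and retinoic acid genes (2 to 1), while single calls in the LIF and X-linked lists were lost. With all 9 libraries and the block 9 named genes lost their call (Acvr1b, Bmp4, Ep300, Kat6a, Tfcp2l1, Tead1, Tjp1, Trib3 and Kmt2b). With all 9 libraries and no block 20 did, these and Pagr1a, Acvr2b, Dnmt3b, Esrrb, H2-K1, Kdm6b, Kmt2d, Skil, Tfeb, Vegfa and Zscan4d. In that fit the counts over all genes were 4275, 1915 and 2360. In the fit of 6 libraries with the block, genes with a mean of at least 5 CPM gave 257 and 470 differences over 2-fold instead of 623 and 1183. Against a minimum of 1.5-fold 1778 genes passed, 648 and 1130 in the 2 directions, which moved the share higher in the labelled MLL4 knockdown from 48.9% to 36.4%. At that minimum 61 named genes lost their call, and 63 list counts moved by over 1.5 times while 25 did not. In the same order of directions, the mitosis counts went from 11 and 4 to 0 and 0. Those of the DNA methylation genes went from 7 and 5 to 0 and 1. Leaving out 1 replicate pair gave 5662 to 7430 called genes, 2716 to 3819 higher in the labelled MLL4 knockdown and 2946 to 3611 in the UTX knockout. No gene called under an alternative had the opposite sign of a call in the main comparison. Among genes not called, Slc2a3 turned negative without the block (-0.0145), with all 9 libraries and no block (-0.0170) and at a mean of at least 5 CPM (-0.0144), and ranged from -0.157 to 0.127 when a replicate pair was left out. Krt8 turned at that mean (-0.0043) and ranged from -0.184 to 0.304, Pou5f1 from -0.0857 to 0.0273 and Slc2a1 from -0.276 to 0.0343. The cause of these shifts was not tested. Genes of a few counts per library, such as the 2-cell-like and retinoic acid genes, have the least precise values.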
